A study of Oncorhynchus mykiss with 12 samples.

Results

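The miR-26 family was followed in the liver of rainbow trout through 2 sequences, ssa-miR-26a-5p and ssa-miR-26d-5p, of 1696 miRNA sequences in the deposited table. They were picked by name, and both passed the filter on low counts that left 340 sequences for testing. The 12 libraries came from fish given as adult, wild type and strain Walbaum, 1 liver per library. In the highCHO group, fish 38, 45, 49 and 50 had been refed with a high-carbohydrate meal. In the noCHO group, fish 20, 21, 31 and 33 had been refed with a meal without carbohydrate. Fish 7, 8, 10 and 13 of the fasted group had gone without food for 4 days. The sources used here do not give the time since the meal, the sex or the tank. Each library carries a number of its own, read here as a fish, and nothing in the labels says how the fish were housed, so p-values measure the spread between these samples.

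A miRNA is a short RNA that guides Argonaute proteins to messenger RNAs, mainly by pairing through its seed near the 5′ end. Animals cut it from a hairpin, which yields a 5p arm and a 3p arm, of which 1 usually accumulates. The miR-26 family is conserved across vertebrates, and in mammals its hairpins lie in introns of CTDSP phosphatase genes. In mouse liver miR-26a has been tied to insulin sensitivity and to restraint of glucose production and lipid synthesis. Rainbow trout is a carnivore that clears dietary glucose poorly.

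The members differ by 1 base. They are shown with the seed (bases 2 to 8) and the differing base in capitals, in the DNA letters of the table, 5′ to 3′.
ssa-miR-26a-5p: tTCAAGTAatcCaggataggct
ssa-miR-26d-5p: tTCAAGTAatcTaggataggct
The difference is C12T, counted from 1 at the 5′ end of 26a, so both carry the seed TCAAGTA. A further 18 rows of the table carried the name miR-26, the seed or the core of the 26a sequence, 13 of the 20 in all from the 5p arm and 7 from the 3p arm. Of these, 5 passed the filter on low counts. Among them, dre-miR-26a-5p_L+1R-1_1ss22CT is described below. The other 4 are shown here, with the seed in capitals in the 5p sequences.
ssa-miR-26b-5p_R-2: tTCAAGTAatccaggatagg
dre-miR-26a-5p_R+2: tTCAAGTAatccaggataggcttt
ssa-miR-26a-3p: cctattctcgattacttgtttc
ssa-miR-26b-3p: cctattctgcatgacttggttc
The first of these is 20 nt long and equals the first 20 bases of 26a, although the authors named it after 26b. Reads of that length cannot tell 26a from 26b, and it is called the 20-nt form here. Of all counts on the 20 rows, 26a held 91.8%, the 20-nt form 7.12% and 26d 0.552%.

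Libraries differed in ways that touch these values. The deposited estimated counts summed to 197684 (highCHO fish 49) to 3057706 (noCHO fish 33) per library. Inserts under 15 nt were 14.2 to 32.2% of adapter-containing reads in highCHO fish, 6.18 to 13.0% in noCHO fish and 7.63 to 11.6% in fasted fish. Counted miRNA was 25.5 to 41.2% of mappable reads in highCHO fish, 44.4 to 56.0% in noCHO fish and 43.1 to 45.8% in fasted fish. The highCHO libraries thus lay apart from the others in both measures. The percentage of short inserts was a term in an alternative fit, and the part of the miRNA percentage was not tested. The libraries also fell into 2 sets by the share of dre-let-7c-5p_1ss19GC in its sum with dre-let-7a, a split known from earlier results of these data and not a labelled batch. In set 2, which holds every highCHO library plus noCHO fish 31 and 33, that share was 3.32 to 3.81%. In set 1, which holds noCHO fish 20 and 21 plus every fasted library, it was 0.942 to 1.42%. Levels are given as CPM, estimated counts per 1000000 counts after trimmed-mean (TMM) scaling between libraries, so they are not plain shares of a library. The hepatocyte markers (miR-122, miR-192 and miR-194) summed to 252976 to 466251 CPM over all libraries. Markers of other cells were lower: 43738 to 77942 CPM for smooth muscle and fibroblast, 7779 to 12477 for endothelium, 1674 to 6996 for epithelium, 1489 to 4832 for erythrocytes, 1167 to 3152 for leukocytes and 6.91 to 188 for skeletal and cardiac muscle. Pancreas markers were at 14421 CPM in highCHO fish 38 and at 154.5 to 358 CPM in the other libraries. The highest epithelial sum (6996 CPM) and the highest skeletal and cardiac muscle sum (188 CPM) were those of highCHO fish 38 too, where the other highCHO fish reached 3790 and 15.5 CPM.

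ssa-miR-26a-5p was among the most abundant sequences of every liver, at rank 8 to 11 of 1696. CPM are TMM-scaled here too. Its level was 19217, 27523, 28495 and 30880 CPM in highCHO fish 38, 45, 49 and 50, against 22227, 16219, 18473 and 21989 CPM in noCHO fish 20, 21, 31 and 33, and 23445, 21323, 19579 and 20559 CPM in fasted fish 7, 8, 10 and 13. In the highCHO group, fish 45, 49 and 50 lay above every noCHO and every fasted fish, while fish 38 lay below all fasted fish but within the noCHO range. Means were 26529 ± 5074 CPM in highCHO fish, 19727 ± 2901 CPM in noCHO fish and 21227 ± 1642 CPM in fasted fish (SD, n = 4 each).

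No difference of 26a between groups passed in edgeR's quasi-likelihood test with Benjamini-Hochberg adjustment over 340 sequences and a threshold of 0.05. In highCHO against noCHO fish the level was 1.34-fold higher (log2 0.43, SE 0.17, adjusted p = 0.173), and in highCHO against fasted fish 1.25-fold higher (log2 0.32, SE 0.17, adjusted p = 0.239). Scaled to the library total, the highCHO against fasted log2 change was 0.11 (SE 0.15, adjusted p = 0.700). In noCHO against fasted fish the log2 change was −0.11 (SE 0.17, adjusted p = 0.993). The groups overlapped in all 3 comparisons, as they did for all but 16.8% of tested sequences in highCHO against fasted, 9.12% in highCHO against noCHO and 4.12% in noCHO against fasted fish. Over all sequences, 2.35% passed in highCHO against noCHO fish and 6.18% in highCHO against fasted fish. In noCHO against fasted fish 0% passed, with 23 of 340 at an unadjusted p under 0.05 in edgeR and 2 called by DESeq2. The unadjusted p of 26a in highCHO against noCHO fish was 0.0250.

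The call in highCHO against noCHO fish turned on 1 library. Without highCHO fish 38, 26a passed in edgeR (log2 0.55, SE 0.14, adjusted p = 0.0401). In that fit 18 of 339 tested sequences passed, against 8 of 340 in the main fit. Over all settings run the adjusted p of 26a lay between 0.0401 and 0.577. Fish 38 also had the highest pancreas, epithelial and skeletal and cardiac muscle markers. The part of these markers in the level of fish 38 was not tested. With the library set as a term the log2 change was 0.39 (SE 0.22, adjusted p = 0.340), and among libraries of set 2 alone, 4 highCHO against 2 noCHO fish, 0.41 (SE 0.28, adjusted p = 0.512). No set holds both highCHO and fasted fish, which leaves no within-set value for them.

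**Figure D1:**
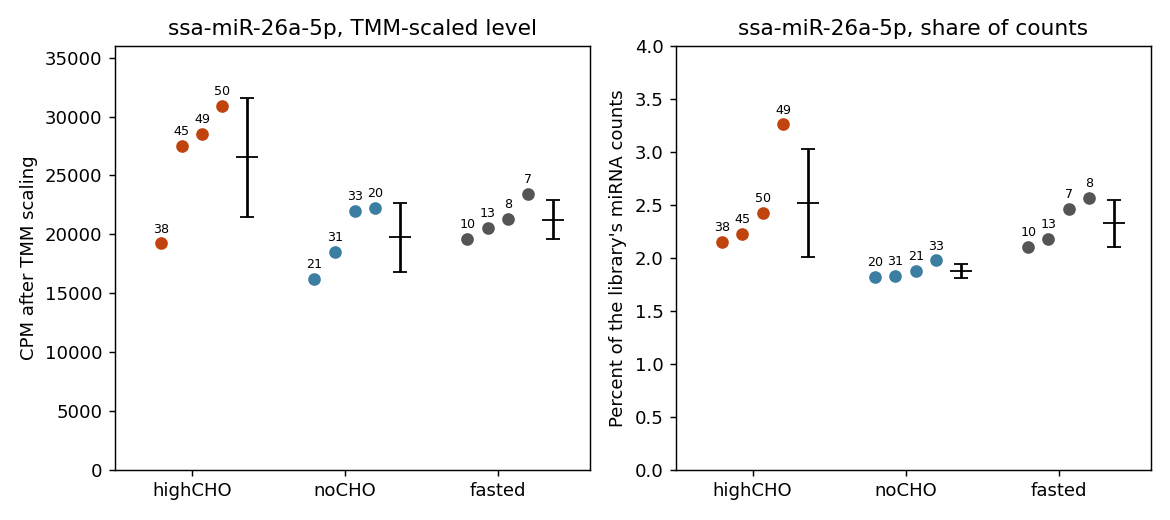
ssa-miR-26a-5p in each library, as CPM after TMM scaling (left) and as percent of the library's miRNA counts (right); points are fish with their numbers, and bars show mean ± SD of 4 fish. In percent of counts the 4 noCHO fish lie between 1.82 and 1.97%, below every highCHO and fasted fish; after TMM scaling the groups overlap.

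As a plain share of the library, 26a was separated between groups in a way that TMM scaling removed. It made up 2.15, 2.23, 3.26 and 2.42% of counts in highCHO fish 38, 45, 49 and 50, against 1.82, 1.87, 1.83 and 1.97% in noCHO fish 20, 21, 31 and 33, and 2.46, 2.57, 2.10 and 2.18% in fasted fish 7, 8, 10 and 13. All noCHO fish lay below all highCHO fish and below all fasted fish. Of the tested sequences, 5% were likewise lower without overlap in noCHO than in fasted fish, and 3.82% higher without overlap in highCHO than in noCHO fish. In the same libraries dre-miR-122_R-1, the main hepatocyte miRNA, held 22.6 to 30.4% of counts in highCHO fish, 30.2 to 35.7% in noCHO fish and 26.6 to 28.6% in fasted fish, and its part in the lower noCHO share of 26a was not tested. Scaled to the library total, edgeR gave 26a a log2 change of −0.31 (SE 0.15, adjusted p = 0.798) in noCHO against fasted fish, where the median of all sequences was −0.17.

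The level of 26a varied less between fish of a group than did most tested sequences. Nearly all of these were scarcer, and sequences of like abundance were not compared apart. Its coefficient of variation within groups averaged 13.9%, against a median of 29.7% over the 340 tested sequences, and 7.35% of them varied less. The counts behind it were 6444 to 60381 per library, so counting error alone was 0.407 to 1.25%. By group the coefficient was 19.1% in highCHO fish, 14.7% in noCHO fish and 7.74% in fasted fish.

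ssa-miR-26d-5p was far scarcer, and 2 of the 12 fish stood apart. Its level was 67.7, 86.9, 72.0 and 102.9 CPM in highCHO fish 38, 45, 49 and 50, against 20.4, 21.0, 57.8 and 293 CPM in noCHO fish 20, 21, 31 and 33, and 28.5, 30.3, 31.6 and 303 CPM in fasted fish 7, 8, 10 and 13. Fasted fish 13 and noCHO fish 33 stood far above the other 10, and the highCHO fish lay close together between these extremes. The estimated counts were 798 in fasted fish 13 and 805 in noCHO fish 33, and 16.3 to 130 in the other libraries, so these 2 fish held 73.1% of all 26d counts.

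**Figure D2:**
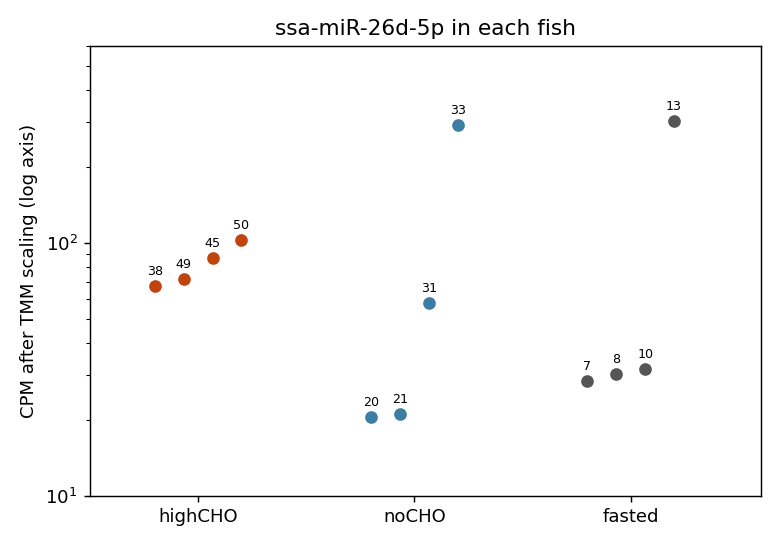
ssa-miR-26d-5p in each fish, as CPM after TMM scaling on a log axis; points carry the fish number. In this plot noCHO fish 33 (293 CPM) and fasted fish 13 (303 CPM) stand above all others, and the next highest is highCHO fish 50 at 102.9 CPM.

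Those 2 fish widened the spread of their groups. Mean 26d was 82.4 ± 16.0 CPM in highCHO fish, 98.1 ± 131 CPM in noCHO fish and 98.3 ± 136 CPM in fasted fish (SD, n = 4 each). Within groups its coefficient of variation averaged 97.3%, and 97.9% of the tested sequences varied less. In edgeR's quasi-likelihood test the log2 change was −0.27 (SE 0.94, adjusted p = 0.874) in highCHO against fasted fish, −0.27 (SE 0.93, adjusted p = 0.902) in highCHO against noCHO fish and −0.01 (SE 0.92, adjusted p = 1.00) in noCHO against fasted fish. DESeq2 gave no p for 26d, since its outlier filter set the sequence aside in every comparison. Without fasted fish 13 and noCHO fish 33, a choice made after their values were seen, the changes were 1.44 (SE 0.39, adjusted p = 0.0660), 1.28 (SE 0.38, adjusted p = 0.189) and 0.16 (SE 0.40, adjusted p = 0.997) in edgeR, in the same order. In edgeR the sign of the highCHO changes thus turned with these 2 fish, and neither set of values passed. With no fish left out, limma on log2 of the authors' normalized signal gave 0.59 (SE 0.88) in highCHO against fasted fish. In highCHO against noCHO fish it gave 0.65 (SE 0.88), and neither change passed.

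These 2 fish were picked for their 26d level, so 26d was bound to exceed 1 in the measure used here. The lower of their 2 levels was 2.85 times the highest level of the other 10 fish for 26d. By that measure, applied to all 340 tested sequences, 4 exceeded 1, with 26d among them, and the next after 26d was ssa-miR-93a-5p at 1.12. Lower levels were not looked at, and how many sequences any 2 fish would give was not tested. The 2 libraries were also the deepest, at 2488263 counts in fasted fish 13 and 3057706 in noCHO fish 33, against 2036421 in noCHO fish 31, the next. The part of depth was not tested.

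The ratio of the 2 members within a library needs no scaling between libraries. The share of 26d in the pair was 0.351, 0.315, 0.252 and 0.332% in highCHO fish 38, 45, 49 and 50, against 0.0918, 0.129, 0.312 and 1.32% in noCHO fish 20, 21, 31 and 33, and 0.121, 0.142, 0.161 and 1.45% in fasted fish 7, 8, 10 and 13. Outside fasted fish 13 and noCHO fish 33, set aside after their values were seen, the shares fell into 2 ranges that matched the library sets. The other 5 libraries of set 2 had 0.252 to 0.351%, and the other 5 of set 1 had 0.0918 to 0.161%. Among noCHO fish, fish 31 of set 2 lay with the highCHO fish, and fish 20 and 21 of set 1 lay with the fasted fish. How often other sequences or ratios part the library sets was not counted. The part of library set in the 26d share was not tested. Fasted fish 13 belongs to set 1 and noCHO fish 33 to set 2, so the high shares occurred in both sets.

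**Figure D3:**
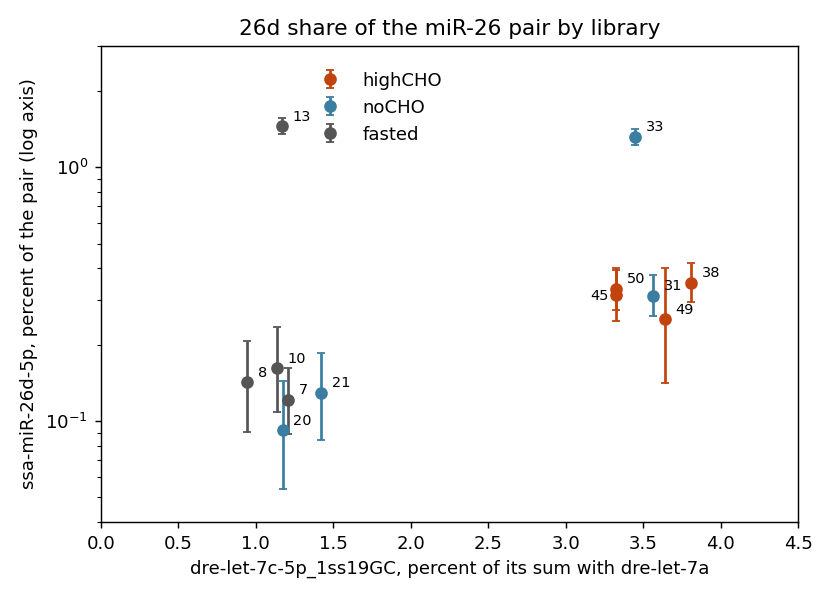
Share of ssa-miR-26d-5p in its sum with ssa-miR-26a-5p (log axis) against the share of the let-7 sequence that defines the library sets. Each point is a fish, and bars are exact 95% binomial intervals for counting error, computed on rounded estimated counts. The 5 lower-left libraries have 0.0918 to 0.161%, the 5 at lower right 0.252 to 0.351%, and fasted fish 13 and noCHO fish 33 lie above both at 1.45 and 1.32%.

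Counting error did not bridge these ranges for most fish. Exact 95% binomial intervals (Clopper-Pearson) ran from 1.35 to 1.55% in fasted fish 13 and from 1.23 to 1.41% in noCHO fish 33. The interval of highCHO fish 38 was 0.294 to 0.417% and that of fasted fish 7 was 0.0888 to 0.162%. In highCHO fish 49, the shallowest library with 16 counts of 26d, it was 0.142 to 0.402% and reached into the lower range. These intervals cover counting error only. They treat rounded estimated counts as whole reads, although reads were split between sequences, so they are approximate.

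Means of the share were 0.312 ± 0.0429% in highCHO fish, 0.462 ± 0.577% in noCHO fish and 0.469 ± 0.655% in fasted fish (SD, n = 4 each). None of 3 exact permutation tests (2-sided) on the share passed. The difference was −0.157 percentage points in highCHO against fasted fish (exact permutation p = 1, adjusted 1), −0.150 in highCHO against noCHO fish (exact permutation p = 0.971, adjusted 1) and −0.00675 in noCHO against fasted fish (exact permutation p = 0.971, adjusted 1). With 4 against 4 libraries the smallest unadjusted p is 0.0286. After adjustment over 3 comparisons, 1 comparison at that p could not pass on its own. Without fasted fish 13 and noCHO fish 33 the difference was 0.171 in highCHO against fasted fish (exact permutation p = 0.0571, adjusted 0.171) and 0.135 in highCHO against noCHO fish (exact permutation p = 0.114, adjusted 0.171), the opposite sign. With 4 against 3 libraries 0.0571 is the smallest unadjusted p, so these could not pass at all. Within set 1 the noCHO against fasted difference was −0.358 (exact permutation p = 0.267), and within set 2 the highCHO against noCHO difference was −0.502 (exact permutation p = 0.533). With 2 against 4 libraries no p under 0.133 was possible, so neither could pass. For highCHO against fasted fish, meal and library set cannot be told apart.

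The division of shared reads touches all these values. None of the 12 counts of 26a, 26d or the 20-nt form was whole, so each includes reads that were split between sequences. All 12 were multiples of 1/42 for 26d, and of 1/420 for 26a and the 20-nt form (within 1e-06 of a read). The levels, the pair share with its intervals and the 20-nt share rest on that split. How the split was made is not given in the sources used here.

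The 20-nt form, with the same seed, had lower means in highCHO fish than in the other groups, where 26a had a higher one. It held 1465, 1076, 1511 and 1191 CPM in highCHO fish 38, 45, 49 and 50, against 1414, 1613, 1779 and 1862 CPM in noCHO fish 20, 21, 31 and 33, and 1705, 2178, 2076 and 1717 CPM in fasted fish 7, 8, 10 and 13. All highCHO fish lay below all fasted fish, as did 10.6% of tested sequences, and highCHO and noCHO fish overlapped. It was 1.46-fold lower in highCHO than in fasted fish but missed the threshold in edgeR (log2 −0.55, SE 0.17, adjusted p = 0.0691). DESeq2 called it (log2 −0.52, SE 0.17, adjusted p = 0.0345), where 35 of 340 sequences were called, 16 of them lower. The 20-nt form passed in 1 of 26 settings run, with adjusted p between 0.0345 and 0.342. In highCHO against noCHO fish the log2 change was −0.35 (SE 0.17, edgeR adjusted p = 0.265), and in noCHO against fasted fish −0.20 (SE 0.17, edgeR adjusted p = 0.993).

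Set against 26a within each library, the 20-nt form made up 4.90 ± 1.58% of the sum of the 20-nt form and 26a in highCHO fish, 7.90 ± 1.39% in noCHO fish and 8.34 ± 1.32% in fasted fish (SD, n = 4 each). The highCHO range of 3.71 to 7.08% overlapped with 5.98 to 9.04% in noCHO fish and 6.78 to 9.59% in fasted fish. The highest highCHO value was that of fish 38. This share was described and not tested. The highCHO libraries also held the most inserts under 15 nt, and the part of insert length in the share was not tested.

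**Figure D4:**
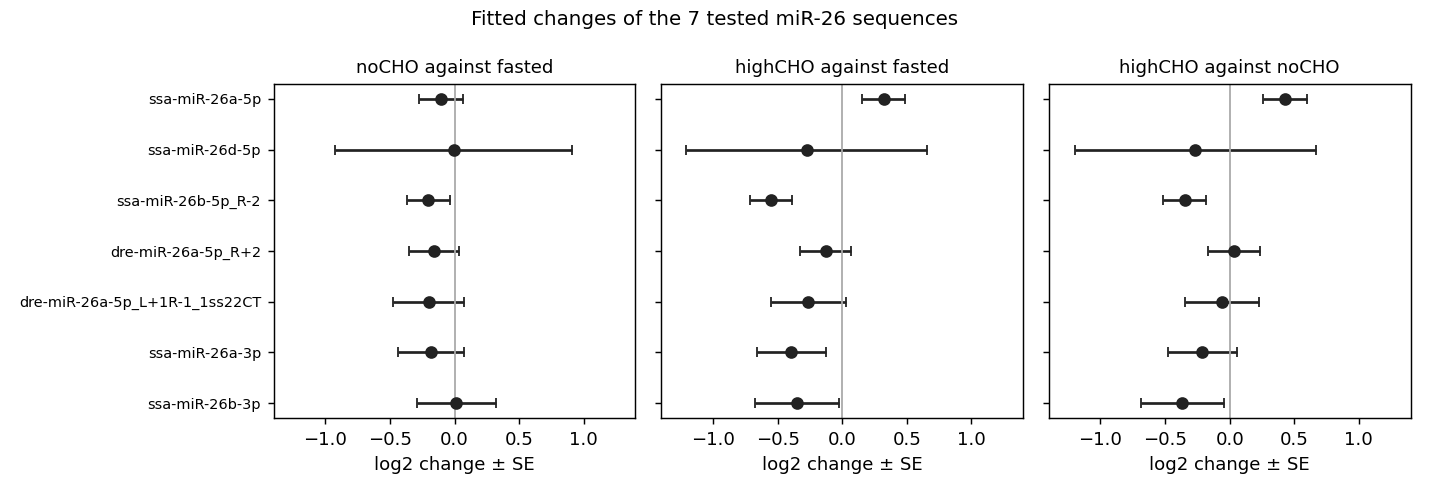
Fitted log2 changes (points) with SE (bars) of the 7 tested miR-26 sequences in the 3 comparisons, from edgeR. ssa-miR-26a-5p is the only 1 of the 7 with a positive change in highCHO against fasted fish (0.32), the 20-nt form lies at −0.55, and ssa-miR-26d-5p has the widest bars and turns positive in limma (0.59).

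The 3p arm was scarce. ssa-miR-26a-3p, the most counted of 6 rows for the 3p arm of 26a hairpins, averaged 19.2 ± 5.02 CPM in highCHO fish, 21.4 ± 3.08 CPM in noCHO fish and 24.7 ± 6.01 CPM in fasted fish (SD, n = 4 each). Per 1000 counts of 26a it had 0.651, 0.672, 0.776 and 0.774 counts in highCHO fish 38, 45, 49 and 50, against 0.812, 1.27, 1.15 and 1.16 in noCHO fish 20, 21, 31 and 33, and 1.00, 1.57, 1.05 and 1.03 in fasted fish 7, 8, 10 and 13. All highCHO fish lay below all other fish in this ratio, which was looked at without a test and rests on 5 to 70 counts of ssa-miR-26a-3p per library. With all 6 rows summed, a choice made after the values were seen, the ratio was 0.895 to 1.24 in highCHO fish, 1.42 to 1.81 in noCHO fish and 1.39 to 2.08 in fasted fish, again with no overlap between highCHO and the other fish. In CPM, the groups did not overlap for 16.8% of tested sequences in highCHO against fasted and 9.12% in highCHO against noCHO fish. How often a ratio to 26a parts the groups was not counted. The part of insert length in this ratio was not tested. The log2 change of ssa-miR-26a-3p in highCHO against fasted fish was −0.39 (SE 0.27, edgeR adjusted p = 0.381).

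**Figure D5:**
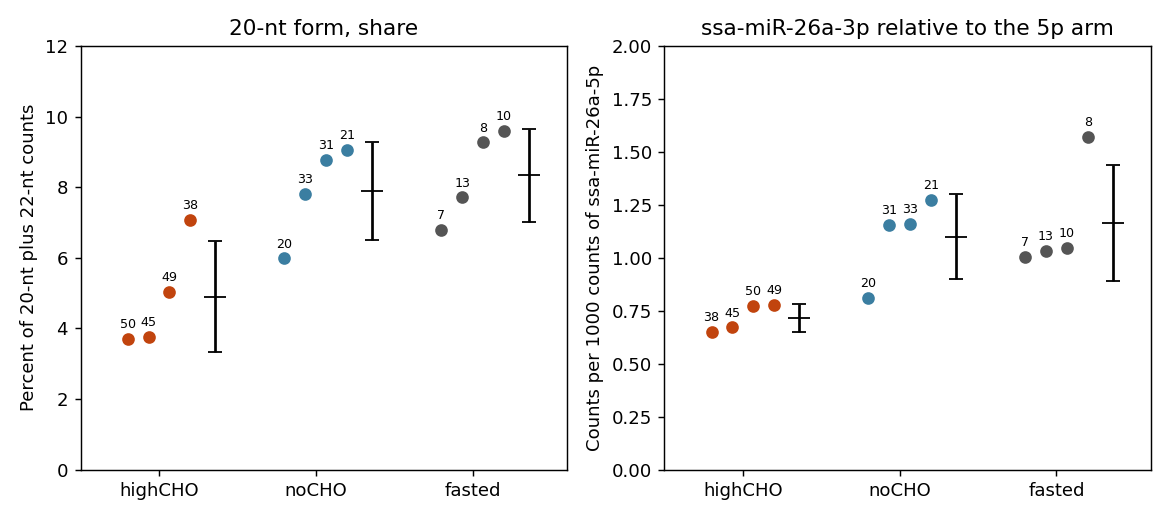
The 20-nt form as percent of its sum with ssa-miR-26a-5p (left), and counts of ssa-miR-26a-3p per 1000 counts of ssa-miR-26a-5p (right); points are fish with their numbers, and bars show mean ± SD of 4 fish. In the right panel the 4 highCHO fish (0.651 to 0.776) lie below all 8 other fish, in a ratio described without a test.

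ssa-miR-26b-3p, the opposite arm of 26b, averaged 13.7 ± 6.28 CPM in highCHO fish, 18.99 ± 3.56 CPM in noCHO fish and 18.6 ± 4.95 CPM in fasted fish (SD, n = 4 each). The 24-nt form dre-miR-26a-5p_R+2 averaged 40.7 ± 6.85, 39.8 ± 2.40 and 44.3 ± 7.08 CPM in highCHO, noCHO and fasted fish. A form that starts 1 base before 26a, dre-miR-26a-5p_L+1R-1_1ss22CT, also differs from 26a by C21T. It does not carry the shared seed at bases 2 to 8. In the same groups it averaged 11.9 ± 2.05, 12.8 ± 3.28 and 15.2 ± 4.38 CPM. None of these 3 passed in any comparison. The remaining 13 rows did not pass the filter on low counts, and 7 of them summed to fewer than 10 counts over all libraries.

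The sequences whose level moved most like 26a across the 12 libraries, by Pearson correlation of log2 CPM, were ssa-miR-30b-5p_R-4 (r = 0.89, Spearman rho = 0.90), the candidate PC-5p-2366_467 (r = 0.88, rho = 0.84), ipu-miR-125a (r = 0.88, rho = 0.85) and ola-miR-22_R+1 (r = 0.87, rho = 0.82). These are descriptions over libraries that differ in depth and set, and the median r over all other tested sequences was −0.10. Like 26a, ssa-miR-30b-5p_R-4 was highest in highCHO fish, at a mean of 29647 CPM, against 22217 CPM in noCHO fish and 21376 CPM in fasted fish. It was picked for its correlation with 26a in these libraries, so the shared pattern is no separate result. For 26d the closest were ssa-miR-204-5p (r = 0.68, rho = 0.80), the candidates PC-5p-3674_244 (r = 0.66, rho = 0.74) and PC-3p-13144_39 (r = 0.62, rho = 0.64), and ssa-miR-92a-3p (r = 0.60, rho = 0.48). None of these tracked 26d as closely as the first 4 tracked 26a. The members themselves had r = 0.28 and rho = 0.29.

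Other miRNAs studied in insulin and glucose handling mostly did not pass. Apart from miR-26, the list of such families held 35 tested sequences from 14 families. Its families miR-126, miR-143, miR-145, miR-223 and miR-375 are also among the markers of other cells. In highCHO against fasted fish 1 rose and 1 fell, where 3.24% of all tested sequences rose and 2.94% fell. In highCHO against noCHO fish the counts were again 1 and 1, where 1.18% rose and 1.18% fell. In noCHO against fasted fish 0 passed in edgeR. Medians of the 35 were 0.07, −0.01 and 0.06 on the log2 scale, beside 0.03, −0.00 and 0.02 over all 340, in the order highCHO against fasted, highCHO against noCHO and noCHO against fasted. The riser was ssa-miR-145-3p_L+2R-1, the more abundant arm here of a miRNA of smooth muscle, at 9558 ± 1672 CPM in highCHO fish, 4189 ± 915 CPM in noCHO fish and 3209 ± 824 CPM in fasted fish. The smooth muscle and fibroblast markers, which include miR-145, summed to 61954 to 77942 CPM in highCHO fish, 43738 to 63244 CPM in noCHO fish and 48322 to 61261 CPM in fasted fish, and their part in this rise was not tested. The log2 change of ssa-miR-145-3p_L+2R-1 was 1.57 (SE 0.22, edgeR adjusted p = 0.00124) against fasted fish and 1.19 (SE 0.22, edgeR adjusted p = 0.0129) against noCHO fish. The other tested miR-145 rows did not pass. In the same order, ola-miR-145_L+1R+4 had 0.17 (SE 0.37) and 0.04 (SE 0.37), and dre-miR-145-3p_L-2R+2 had 0.86 (SE 0.42) and 0.80 (SE 0.41). The one that fell was fru-miR-152, which shares its seed family with miR-148, at 5307 ± 1210 CPM in highCHO fish, 10355 ± 1175 CPM in noCHO fish and 9537 ± 681 CPM in fasted fish. Its log2 change was −0.85 (SE 0.17, edgeR adjusted p = 0.0138) against fasted fish and −0.96 (SE 0.17, edgeR adjusted p = 0.0129) against noCHO fish. The other tested miR-152 row, ssa-miR-152-5p_L-1, did not pass, at 0.21 (SE 0.33) and 0.27 (SE 0.33). Over all settings run, fru-miR-152 kept its direction but passed in 20 of 26 against fasted and 18 of 27 against noCHO fish, with edgeR adjusted p = 0.223 and 0.204 once the percentage of short inserts was a term. Its call also went without fasted fish 8 (adjusted p = 0.113 and 0.0659) or 10 (0.114 and 0.0589), and, against noCHO fish, without noCHO fish 21 (0.0611) or 31 (0.0574). ssa-miR-145-3p_L+2R-1 passed in 25 of 26 and 24 of 27 settings, and did not with the library set as a term against fasted fish (edgeR adjusted p = 0.0724), nor with the short-insert term (0.0766), without fasted fish 13 and noCHO fish 33 (0.0862) or in set 2 alone (0.208) against noCHO fish.

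The abundant members of other families did not pass. In highCHO against fasted fish the log2 change was 0.53 (SE 0.25) for ccr-miR-143, 0.26 (SE 0.15) for ccr-miR-126-3p_L-1R+1, 0.07 (SE 0.33) for dre-miR-148_R-1 and 0.02 (SE 0.19) for dre-miR-181a-5p. For miRNAs that in mouse act on hepatic insulin signalling through caveolin it was 0.04 (SE 0.26) for fru-miR-103 and −0.26 (SE 0.19) for dre-miR-107a-3p_R-1. For ssa-miR-29b-2-5p_L-2 it was −1.23 (SE 0.41, edgeR adjusted p = 0.0829). The other tested miR-29 rows were scarcer and did not pass either. ssa-miR-29c-5p had −1.34 (SE 0.41, edgeR adjusted p = 0.0723) and ssa-miR-29b-3p −1.03 (SE 0.32, edgeR adjusted p = 0.0753). dre-miR-29b had −1.11 (SE 0.45, edgeR adjusted p = 0.149) and ipu-miR-29a_R+2 −0.23 (SE 0.32). For ssa-miR-33b-3p, of the sterol-linked miR-33 family, the log2 change was −0.28 (SE 0.30). dre-miR-375, a miRNA of pancreatic islets, had 2.94 (SE 1.09, edgeR adjusted p = 0.118). Its mean was 678 ± 1214 CPM in highCHO fish and 88.5 ± 49.4 CPM in fasted fish (SD, n = 4 each). It is itself a pancreas marker, and the pancreas markers summed to 14421 CPM in highCHO fish 38. Once that library is set aside, the largest highCHO sum was 228 CPM, below the highCHO mean of dre-miR-375 alone. That mean, and with it the log2 change, thus came mostly from fish 38. The scarcest families of the list had 1.03 (SE 0.50, edgeR adjusted p = 0.201) for fru-miR-96_R-1, 0.15 (SE 0.36) for fru-miR-223_R+1 and −0.16 (SE 0.87) for dre-miR-34a.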

How the data were processed

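Small RNA of 12 livers was sequenced. The first table deposited by the authors holds read counts per library, and per the file headers it counts inserts under 15 and over 32 nt apart. The authors' second deposited table gives estimated counts per sequence, 85.1% of them whole and the rest fractional. It also holds the authors' normalized signal, which equals the deposited count divided by the library size parameter given per the file headers, with zeros as 0.001. Bowtie 1.1.1 is named in the submitters' processing notes without its role, and no build or miRNA database is named there.

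Rounded estimated counts entered edgeR 4.0.16 (R 4.3.3; TMM, expression filter by group, 1 quasi-likelihood fit of all 12 libraries with 9 residual degrees of freedom, 2-sided, Benjamini-Hochberg over 340 sequences, threshold 0.05). Each SE is the absolute log2 change over the square root of F. At the lowest depth, 1 per 1000000 counts before TMM scaling is 0.198 counts. DESeq2 1.42.0 and limma 3.58.1 were alternatives, and the scripts were tested on simulated data. For the 26d share, exact permutation tests (2-sided) ran over 70 arrangements, adjusted over 3 comparisons. No batch, run or date is labelled. Genes named are the members, other miR-26 rows and the 4 sequences most correlated with each member. From a list of insulin and glucose families, those called and the most abundant of each tested family are named (at most 12 by the rule, and the other 3 are given too). The other tested rows of miR-145, miR-152 and miR-29 were added after their values were seen. Members, lists and the library sets were chosen with earlier results of these data known.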

Additional observations from a re-analysis of the deposited data

Results flagged for a closer look

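Of 27 groups of 4 libraries looked at for the tested miR-26 sequences and their shares, 4 held a library far from its group. Chance gives about 1 in 20 only for normal values in independent groups. These groups are not independent, since the 26d level and the 26d share in fasted fish 13 rest on the same counts. ssa-miR-26d-5p stood apart in noCHO fish 33 (293 CPM) and in fasted fish 13 (303 CPM), and the share of 26d in the pair stood apart in fasted fish 13 (1.45%). dre-miR-26a-5p_L+1R-1_1ss22CT was at 21.7 CPM in fasted fish 8, the highest of 12.5 to 21.7 CPM in that group, on 18.2 counts.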

How the results depend on the processing

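No paired analysis was possible because the groups share no fish numbers. For ssa-miR-26a-5p all alternatives kept the direction in all 3 comparisons, and 1 changed a call: highCHO against noCHO passed without highCHO fish 38. Leaving out each library gave log2 0.40 to 0.55 there, 0.24 to 0.45 in highCHO against fasted fish and −0.20 to −0.08 in noCHO against fasted fish. For ssa-miR-26d-5p the same ranges were −0.62 to 1.35, −0.53 to 1.44 and −1.59 to 1.71, and its share in the pair ranged from −0.273 to 0.135, −0.272 to 0.171 and −0.291 to 0.321 percentage points. The 26d change reversed to 0.65 and 0.59 in highCHO against noCHO and against fasted fish in limma on the authors' signal, to 0.42 and 0.25 with the percentage of short inserts in the model, and to 1.28, 1.44 and, in noCHO against fasted fish, 0.16 without fasted fish 13 and noCHO fish 33. The share reversed to 0.135, 0.171 and 0.0361 without them, and to 0.229, 0.296 and 0.0677 as a log2 ratio. The cause was not tested. With the set as a term, 26d had −1.09, −3.37 and −2.28. None of these passed. No set holds both highCHO and fasted fish, so −3.37, for highCHO against fasted fish, is not a within-set value. It depends on the noCHO fish, the only group found in both sets. The fit with the set term kept fasted fish 13 and noCHO fish 33. Without them, and without the set term, all 3 changes were positive, as given above. DESeq2 gave no p for 26d.

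Over all sequences, highCHO against fasted fish had 21 calls in edgeR, 35 in DESeq2, 54 without a filter, 13 by library total or with the set term, 9 in limma, 3 with the short-insert term, 7 without fasted fish 13 and noCHO fish 33, and 7 to 25 without each library. For highCHO against noCHO fish the main number was 8, with 22, 52, 3 (2 higher, 1 lower) and 18, 3, 1, 2 and 2 to 18 in the same order, 4 in a fit of the 2 groups and 0 in set 2 alone (48 at an unadjusted p under 0.05). For noCHO against fasted fish it was 0, with 2 in DESeq2, 4 without a filter and 0 to 2 without each library. With 16 counts of 26d in the shallowest library, counting error there was 24.8%.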
